A study of Rattus norvegicus with 20 samples.

Results

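Chromosome 5 of the rat was examined on CpG island arrays in 20 mammary samples. Its members were all probes that are not control spots and whose position in build rn4 lies on chromosome 5, 6115 of 93024 probes on the array. Of these, 2150 lie in the distal interval, from megabase 150 to the last probe at 173071245, which was chosen because several carcinomas had low input DNA signal there in these same arrays. Input levels over this interval, and the split of carcinomas that follows from them, are therefore given as a description with no test. After the filter on dim input 6022 of the 6115 probes were kept. Runs of at least 3 probes starting at most 500 bases apart held 5674 of them and formed 942 regions, 327 in the distal interval and 615 in the rest of the chromosome, of 13556 regions in all.

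DNA came from 4 normal mammary glands and 16 carcinomas of the mammary gland, all from female F1 rats bred from Sprague-Dawley and Copenhagen parents. The series calls the carcinomas radiation-induced. The treatment text for the whole series gives either no treatment or, at the age of 7 weeks, whole-body caesium gamma rays (4 Gy in all, 0.5 Gy each minute), and whether the normal glands were irradiated was not given. On each array the Cy5 channel held DNA captured by a protein that binds methylated CpG through its MBD domain and the Cy3 channel carried input DNA of the same tissue that had not been enriched. No label ties a sample number to an animal, so the p-values below measure only the spread between these samples, which may be in part technical. For carcinomas 7 and 8 the sample code and the file code disagree, so results that rest on carcinoma 8 hold for the library deposited under that label.

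CpG islands are short stretches rich in CG dinucleotides, often at promoters, and most are unmethylated in normal tissue. Tumour genomes commonly gain methylation at some islands, lose it at others, and gain or lose whole chromosome segments. Input DNA carries no methylation selection, so its signal along a chromosome follows the amount of DNA, as in array comparative genomic hybridization, while the ratio of MBD-enriched to input signal follows methylation. By RefSeq's annotation of the newer build GRCr8, rat chromosome 5 carries, among others, Cdkn2a and Cdkn2b, which encode inhibitors of cyclin-dependent kinases, Jun, a subunit of the transcription factor AP-1, Arid1a, a subunit of the SWI/SNF chromatin remodeller, and Runx3, a Runt-domain transcription factor. The files give positions and no gene names, so no region below is assigned to a gene.

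Islands were dense at the distal end. The distal interval held 14.2 regions per megabase and the rest of the chromosome 4.10. In 1-megabase windows with at least 5 probes, 130 windows were measured, with a median of 31.5 probes and at most 207. Input was well above background for 98.6% to 98.8% of chromosome 5 probes in the normal glands and for 91.5% to 99.1% in the carcinomas. The median raw input signal per array was 104 to 136 in normal glands and 73.0 to 129 in carcinomas. The noise of a window, taken as the SD of differences between adjacent windows divided by the square root of 2, was 0.04 to 0.06 in normal glands and 0.05 to 0.20 in carcinomas. On several dim arrays the input shift moved with probe brightness: in carcinoma 4 the dimmest 10% of probes on the other autosomes lay 1.43 below the normal glands on the log2 scale and the brightest 10% lay 0.51 above. Input values are therefore given both as processed and after the mean shift of autosomal probes outside chromosome 5 was removed in 50 bins of probe brightness, a step added after the data were seen.

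**Figure D1:**
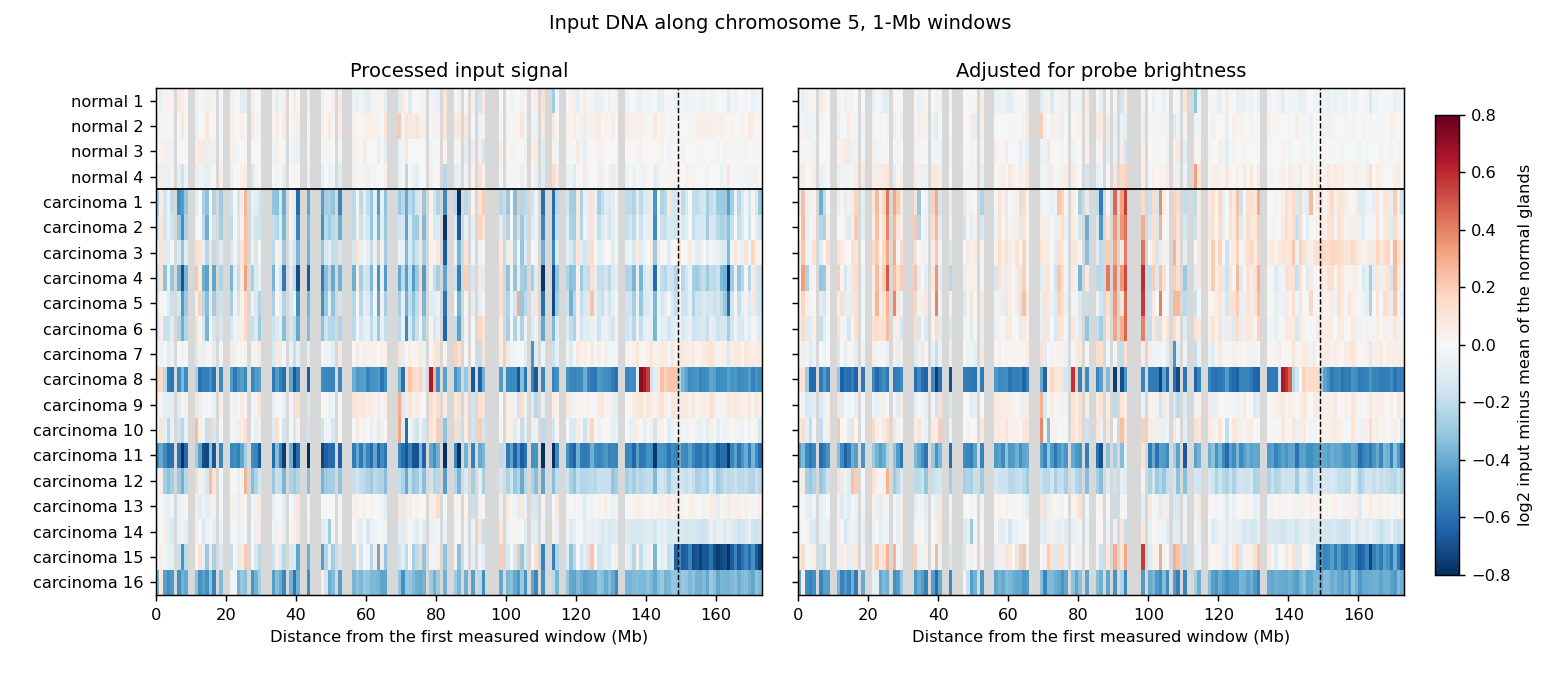
Input DNA in 1-megabase windows along chromosome 5 for the 4 normal glands and 16 carcinomas, as log2 signal relative to the normal glands (each of these against the mean of the other 3), plotted by distance from the first measured window. The left panel shows the processed signal and the right panel the signal adjusted for probe brightness; grey windows held under 5 probes, and the dashed line marks the start of the distal interval. Carcinomas 8, 11, 15 and 16 are blue beyond the dashed line in both panels, and the scattered blue windows of carcinomas 1, 2, 4 and 5 fade in the right panel.

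Over the distal interval 4 carcinomas had clearly low input. The mean log2 input, minus the mean of the normal glands, was -0.63 in carcinoma 15, -0.50 in carcinoma 11, -0.47 in carcinoma 8 and -0.35 in carcinoma 16. The normal glands, each set against the other 3, were at -0.03, 0.02, -0.00 and 0.01 (SD 0.02, n = 4). The other 12 carcinomas ranged from -0.20 to 0.06 with a median of -0.11. With the threshold for low input at -0.25, carcinoma 16 was the nearest inside it and carcinoma 12, at -0.20, the nearest outside. In each of the 4, all 24 measured windows of the interval lay below every normal gland. The same held for all 24 windows in carcinoma 12 and for 23 in carcinoma 14. After the brightness adjustment the values were -0.52 in carcinoma 15, -0.43 in carcinoma 11, -0.52 in carcinoma 8 and -0.39 in carcinoma 16, and the other 12 ranged from -0.17 to 0.13. A bulk mean cannot tell a loss in fewer cells from a deeper loss in more cells.

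The extent of the low input differed among these 4 carcinomas. A low run was defined as at least 5 consecutive measured windows whose running median over 5 windows was below -0.25. In carcinomas 11 and 16 a single run covered all 130 measured windows, with a mean of -0.53 in carcinoma 11 and -0.35 in carcinoma 16. In carcinoma 11 all 130 windows lay below every normal gland, and in carcinoma 16 125 did. Both therefore showed low input over the whole measured chromosome, with no boundary inside it.

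Carcinoma 15 had 1 low run, confined to the distal end. It covered chr5:149000001-174000000, 25 windows with 2209 probes, at a mean of -0.63 in the processed signal and -0.52 after the adjustment. The probe-level change point, the split of probes within 5 megabases that leaves the least squared deviation, fell between the probes starting at 148656873 and 148657214. After the adjustment it fell between 148657224 and 148669327. Proximal to that point, 3882 probes averaged -0.11 in the processed signal, close to the -0.12 of this array on the other autosomes. The 2233 probes distal to it averaged -0.64, where the normal glands lay between -0.03 and 0.02.

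Carcinoma 8 alternated between low and raised segments. Its 3 low runs covered chr5:4000001-72000000 at -0.49, chr5:81000001-138000000 at -0.50 and chr5:151000001-174000000 at -0.47. The 3 depths differed by less than the SD between the windows within a run, which was 0.04 to 0.08. Boundaries fell between probes at 3646268 and 3703102, at 71276079 and 72106019, at 80465736 and 80515714, and at 138394491 and 138599191. The start of the distal run fell between 151089620 and 151321877 in the processed signal and between 149809610 and 150693257 after the adjustment, so it was located less closely than the boundary of carcinoma 15.

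The stretches of carcinoma 8 between the low runs lay above the normal glands on average, though not in every window. Over 227 probes from 138599191 to 141677365 the input averaged 0.59, or 0.52 after the adjustment, and 3 consecutive windows in it were at 0.71, 0.65 and 0.56. This was the highest of the 7 segments of the chromosome in this array; the normal glands lay between -0.03 and 0.03 over the same probes. The segment from 72106019 to 80465736 averaged 0.23 (adjusted 0.17), with 1 window of 46 probes at 0.64 and another of 60 probes at -0.08. The proximal end, up to 3703102, averaged 0.13 (adjusted 0.07), and the 666 probes from 141787755 to 149809610 averaged 0.10 (adjusted 0.04). Within that last segment the windows were at -0.17 and -0.09 at its start and between 0.19 and 0.24 over its last 5 windows.

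**Figure D2:**
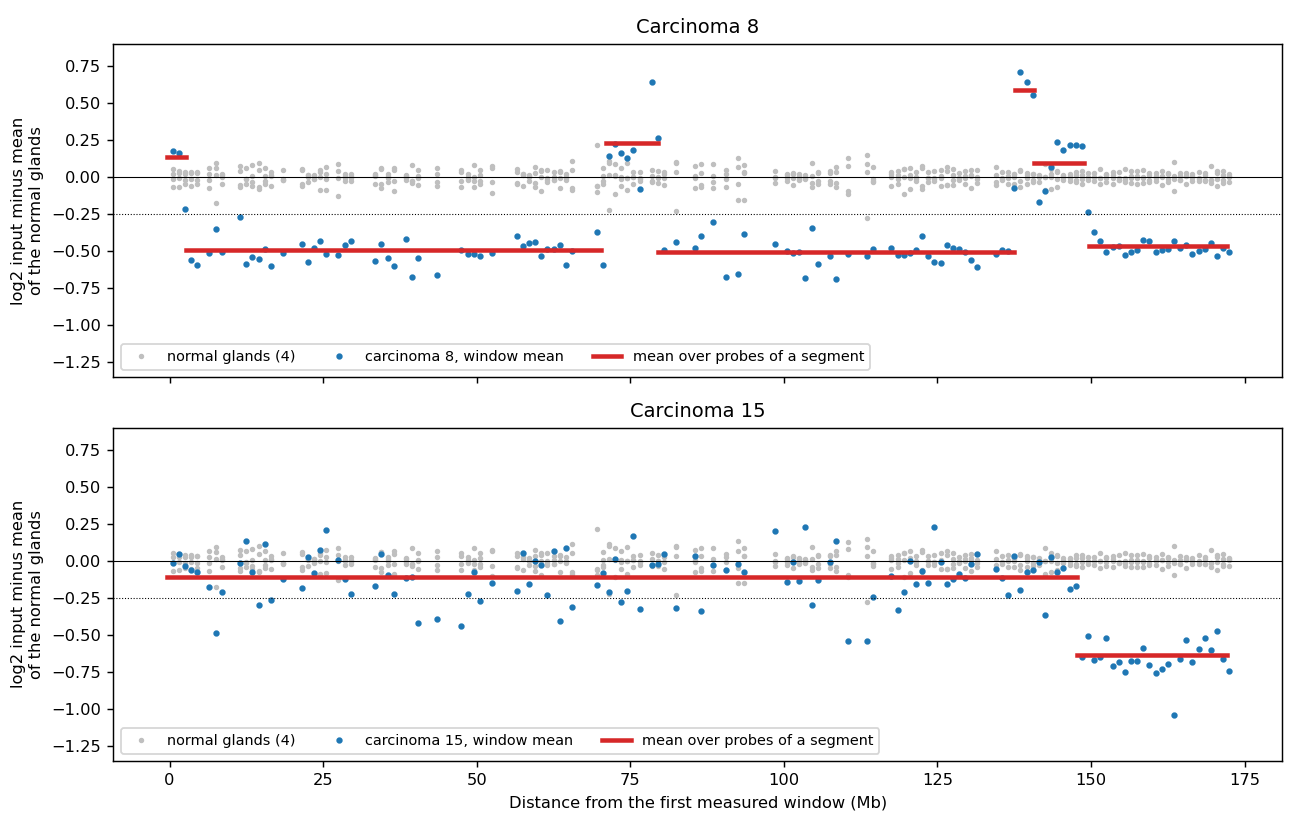
Processed input in 1-megabase windows for carcinomas 8 and 15 (blue), with the 4 normal glands in grey and the mean over the probes of each segment in red; the x axis is the distance in megabases from the first measured window, the y axis is log2 input minus the mean of the normal glands, and the dotted line is the threshold of -0.25. Carcinoma 8 has 3 low segments between -0.50 and -0.47 separated by raised ones, the highest at 0.59, and carcinoma 15 falls once, to -0.64.

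Weaker shifts appeared in carcinomas 12 and 14. With the brightness adjustment and a threshold of -0.10, both added after the data were seen, carcinoma 12 was low from 28000001 to the last measured window, 110 windows at a mean of -0.19. Its boundary lay between 27218437 and 28181347, with the 109 probes before it within 5 megabases averaging 0.05. A second low run of this carcinoma spanned chr5:2000001-10000000 at -0.20. At the -0.25 threshold its adjusted run shrank to chr5:80000001-88000000, at -0.26. Carcinoma 14 was low over chr5:128000001-144000000, chr5:147000001-160000000 and chr5:164000001-174000000, at -0.13, -0.14 and -0.14. The steps at the boundaries of these runs were only 0.03 to 0.07, where the adjusted window noise of this array was 0.05. In it 113 of 130 adjusted windows were below 0, so the extent of its runs depends on the threshold. With a threshold of 0.10 above 0, raised runs were called in carcinomas 1 to 6, 8 and 15, of at most 20 megabases. At these adjusted settings 0 windows of the normal glands were in a low run. Over the distal interval 5 or 6 carcinomas were then low in every window, against a median of 4 in the 106 windows of the rest of the chromosome.

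Low runs in carcinomas 1, 2, 4 and 5 did not survive the adjustment. The processed signal gave 12 runs in these 4 arrays, of 5 to 19 megabases, with means from -0.36 to -0.23. After the adjustment the same windows averaged between -0.08 and 0.07. In all 4 arrays the dimmest 10% of probes lay 0.93 to 1.43 below the normal glands. The same shift was 1.02 in carcinoma 15 and 0.85 in carcinoma 11, whose low runs were called with and without the adjustment. Carcinomas 3 and 6, with shifts of -0.97 and -0.875, had no low run in either signal. In total 9 carcinomas had a low run in the processed signal, summing to 689 megabases (8 carcinomas and 541 megabases without carcinomas 7 and 8), and 5 did after the adjustment, summing to 529 megabases. The adjustment also gave 1 raised run in carcinoma 4, chr5:89000001-100000000 at 0.44 over 44 probes, which the processed signal did not call.

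Chromosome 5 had the largest share of low windows among the 20 autosomes. Of 2080 windows in the 16 carcinomas, 504 (24.2%) lay in a low run in the processed signal, against a background of 9.37% over all autosomes; chromosome 9 followed with 16.8%. After the adjustment the share was 19.1% against a background of 4.71%, and chromosome 6 followed with 8.75%. These shares belong to the measure that chose the chromosome and are given as a description. The normal glands had 0 of 520 windows in a low run on chromosome 5. Carcinomas 11 and 15 shared a slide, carcinoma 16 shared one with carcinoma 14, and carcinoma 8 shared one with carcinoma 9, which had a distal mean of 0.06. The part of the slides in these values was not tested.

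The MBD-enriched channel was low over the distal interval in the same 4 carcinomas. To compare the channels, regions were placed on a linear position, which sets the density mode of all regions of an array to 0 and the mode of the highest 15% to 1 on the unlogged ratio. Of the 327 distal regions, 252 were below 0.2 in all 4 normal glands (the low class) and 49 were above 0.5 in all 4 (the high class). For the high class, the median Cy5 signal of the distal interval minus that of the other autosomes, both relative to the normal glands, was -0.66 in carcinoma 15, -0.61 in carcinoma 8, -0.52 in carcinoma 11 and -0.43 in carcinoma 16. The same difference in Cy3 was -0.56, -0.57, -0.49 and -0.39 in that order. In the other 12 carcinomas the Cy5 difference ranged from -0.18 to 0.06, with carcinomas 12 and 14 lowest at -0.18 and -0.15. The 4 carcinomas thus lay below the other 12 in both channels.

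For the low class the Cy5 signal was low by less than the Cy3 signal. The Cy5 difference was -0.42 in carcinoma 15, -0.36 in carcinoma 11, -0.31 in carcinoma 16 and -0.26 in carcinoma 8, where Cy3 gave -0.54, -0.43, -0.41 and -0.56. In the other 12 carcinomas the Cy5 difference ran from -0.14 to 0.15. The log2 ratio of the low class, set against the other autosomes in the same way, was 0.25 in carcinoma 8, 0.09 in carcinomas 15 and 16, and 0.02 in carcinoma 11, and -0.07 to 0.07 in the others. For the high class the ratio difference was -0.09 to -0.01 in the 4 and -0.06 to 0.05 in the others. Of the 4, carcinoma 11 lay within the other 12 for the low class and carcinoma 16 for the high class; the others lay outside that range.

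**Figure D3:**
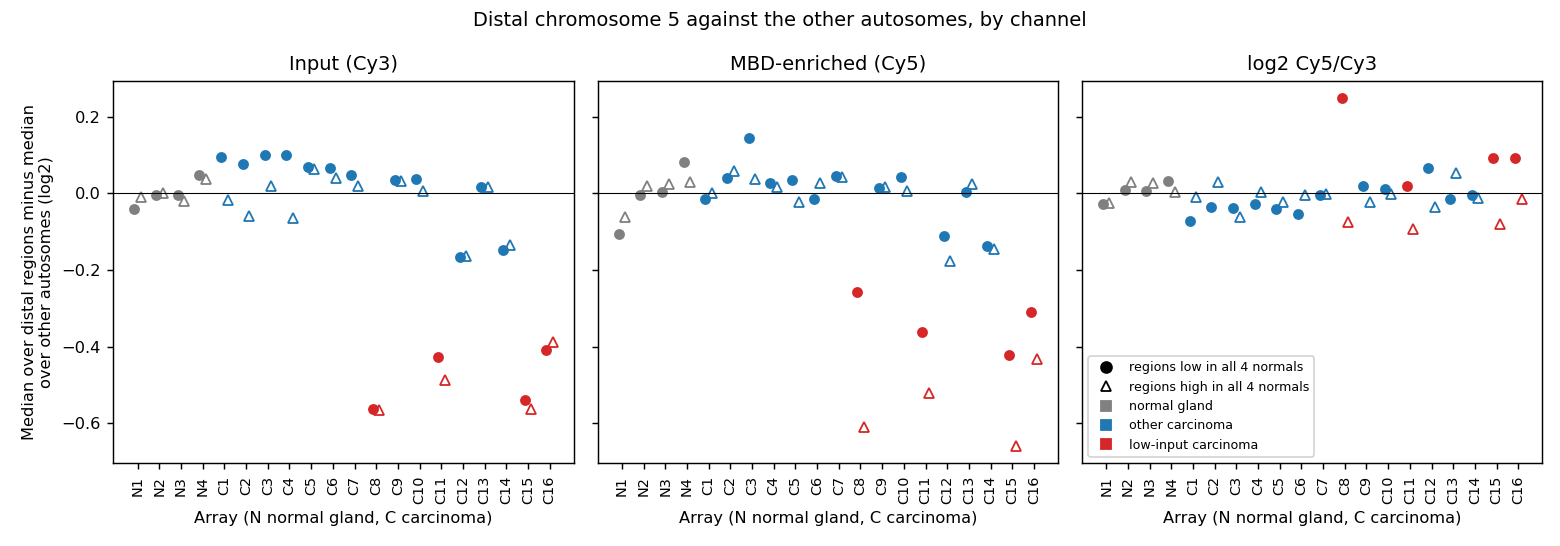
Median over regions of the distal interval minus the median over regions of the other autosomes, for input, MBD-enriched signal and their log2 ratio, each relative to the normal glands. Filled circles are regions low in all 4 normal glands and open triangles regions high in all 4; arrays are on the x axis (N normal gland, C carcinoma). The 4 low-input carcinomas (red) lie below all other arrays in both channels and within or near them in the ratio, where the largest departure is 0.25 in carcinoma 8.

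Region by region, the 4 were separated at more regions in the input than in the Cy5 signal or the ratio. All 4 low-input carcinomas lay below all other 12 in Cy3 at 190 of the 327 distal regions, in Cy5 at 29, and in the log2 ratio at 0; they lay above all 12 in the ratio at 3. On the other autosomes they lay below all 12 in Cy3 at 2 of 12104 regions and in Cy5 at 10. The counts for the ratio there were 1 below and 70 above. In the rest of chromosome 5 they lay below all 12 in Cy3 at 8 of 615 regions and in Cy5 at 8. The 4 were chosen by their input over this interval, so the distal Cy3 count follows in part from that choice. Input is also the denominator of the ratio, so no test was made.

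Within carcinoma 8 the ratio of low-class regions was higher in the low-input segments than in the others. Input is the denominator of this ratio. Low-class regions in its 3 low segments had median Cy3 shifts of -0.51, -0.51 and -0.47 and Cy5 shifts of -0.36, -0.37 and -0.44. In its 4 other segments Cy3 was 0.17 to 0.63 and Cy5 was -0.15 to 0.09. The ratio of low-class regions was 0.03 to 0.15 in the low segments and -0.52 to -0.22 in the others, lowest in the segment of highest input. In carcinoma 15 the low class had a ratio of 0.25 distal to the boundary and 0.15 proximal to it.

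Carcinomas were next compared with normal glands in the log2 ratio. Input, which chose the chromosome and the interval, is the denominator of this ratio, so the Cy5 signal alone is given beside it and the array means are given with no test. The limma calls and adjusted p-values of single regions rest on the same ratio. They are therefore not independent of the choice of chromosome and interval. On chromosome 5, 132 of 942 regions (14.0%) had higher and 184 (19.5%) lower ratios in the carcinomas (limma, adjusted p under 0.05). The background over all 13556 regions was 11.6% higher and 23.7% lower. In the distal interval 37 of 327 regions were higher and 88 (26.9%) lower, and in the rest of the chromosome 95 and 96 of 615. The median difference was 0.07 over chromosome 5 and 0.02 over all regions. The split between directions depended on the scaling. With loess within arrays 132 regions were higher and 26 lower, against backgrounds of 11.2% and 7.15%. On the linear position 152 were higher and 35 lower, against backgrounds of 17.3% and 4.34%. With normexp background correction 52 were higher and 157 lower, against backgrounds of 3.47% and 21.5%. In the Cy5 signal alone 35 were higher and 190 lower, against backgrounds of 4.77% and 21.9%. In log2 ratio and linear position together, 39 regions were higher on both, 21 lower on both, and 31 had a lower log2 ratio but a higher linear position, against backgrounds of 3.67%, 1.98% and 3.95%. Leaving out carcinomas 7 and 8 gave 151 higher and 191 lower, against 15.3% and 24.2%. Leaving out normal gland 1 gave 72 higher and 162 lower, against 6.57% and 21%. Leaving out normal gland 3 gave 81 and 170, against 7.2% and 22%.

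Islands that are methylated in normal gland made up more of the distal interval. The high class held 49 of the 327 distal regions (15.0%), 34 of 615 in the rest of the chromosome (5.53%), and 1180 of 12104 on the other autosomes (9.75%). All 83 high-class regions of chromosome 5 were lower in carcinomas in log2 ratio, and so were all 1455 on the array; the median difference was -1.97 on chromosome 5 and -1.95 over all. The class was defined on the normal glands' values, so this count is a description. On the linear position 17 of the 83 were lower and 14 higher, against 203 lower and 247 higher of the 1455. All 16 carcinomas lay below every normal gland at 121 chromosome 5 regions, 12.8% against a background of 15.6%, and above every normal gland at 19, 2.02% against 1.76%.

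The mean log2 ratio of the 942 regions was 0.43 ± 0.09 in normal glands (SD, n = 4) and 0.31 ± 0.09 in carcinomas (SD, n = 16). The normal glands were at 0.56, 0.39, 0.37 and 0.39, and the carcinomas ran from 0.17 through a median of 0.33 to 0.47, with 14 of 16 below all normal glands. The difference was -0.12, and -0.08 without normal gland 1. It was -0.06 within scan day 2 and -0.19 within scan day 3. Its direction depended on the scaling: it was 0.09 with loess within arrays, 0.02 with quantile normalization, and on the linear position the carcinomas were higher, 0.19 ± 0.03 against 0.12 ± 0.01, with 15 of 16 above all normal glands. In the Cy5 signal alone the difference was -0.27.

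In the distal interval the mean log2 ratio was 0.74 ± 0.12 in normal glands (SD, n = 4) and 0.44 ± 0.11 in carcinomas (SD, n = 16). The normal glands were at 0.91, 0.64, 0.68 and 0.71, and the carcinomas ran from 0.25 through a median of 0.45 to 0.61. All 16 carcinomas lay below every normal gland, at a difference of -0.30. Without the 4 low-input carcinomas the difference was -0.32, within scan day 2 it was -0.21 and within scan day 3 -0.40. It shrank to -0.03 with quantile normalization and turned to 0.09 with loess. On the linear position the carcinomas were higher, 0.24 ± 0.02 against 0.19 ± 0.01, again with 15 of 16 above all normal glands. In the Cy5 signal alone the difference was -0.46.

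The 8 regions of chromosome 5 with the largest rise past the threshold changed by 1.30 to 1.97 on the log2 scale. In the Cy5 signal alone the same regions differed by 0.84 to 1.37, with loess by 0.78 to 1.29, and with normexp by 0.36 to 1.06. The largest was chr5:142598928-142599126, with 4 probes. The normal glands were at -1.53, -0.42, -0.93 and -1.59, and the carcinomas ran from -0.02 through 0.91 to 1.56, with no overlap in the ratio. The difference was 1.97 ± 0.25 (SE), with an adjusted p of 1.25e-05 in limma. It was 1.25 in the Cy5 signal alone and 0.44 with normexp. In Cy5 the groups overlapped. Relative to the mean of the normal glands, carcinoma 5 was at 0.08 and normal gland 2 at 0.74. Input at this region was up to 1.65 below the normal glands, in carcinoma 4. On the linear position its carcinoma mean was 0.21, and no carcinoma reached 0.5. The 8 regions were picked for the size of the rise. All 16 carcinomas lay above every normal gland at 2.02% of chromosome 5 regions and 1.76% of all regions.

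Of these 8, 3 lay within 9166 bases of each other. At chr5:120337458-120337826 the normal glands were at -0.06, 1.23, 0.83 and -0.06 and the carcinomas ran from 1.44 through 2.17 to 3.08. The difference was 1.60 ± 0.27 (SE), adjusted p = 5.93e-05 in limma, and 13 of 16 carcinomas passed a linear position of 0.5. At chr5:120330924-120331903, with 11 probes, the normal glands were at 1.19, 0.96, 0.55 and -0.10 and the carcinomas at 1.24 to 2.99, again with no overlap in the ratio (difference 1.37, adjusted p = 0.000616 in limma, and 0.0532 within scan day 3). In Cy5, relative to the mean of the normal glands, the groups overlapped at these regions. At chr5:120337458-120337826 carcinoma 5 was at 0.36 and normal gland 2 at 0.68. At chr5:120330924-120331903 carcinoma 2 was at 0.33 and normal gland 1 at 0.63. At chr5:120328661-120329511, the difference was 1.38 (adjusted p = 0.00754 in limma), and the call was lost without normal gland 4 (0.0594), with loess (0.13), in the Cy5 signal alone (0.111) and within scan day 3 (0.209). The other 2 regions that lie between these did not pass the test, with differences of -0.05 and -0.36; they were looked up after the 3 had been seen.

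The other 4 rises were spread along the chromosome. At chr5:15240508-15240816 the normal glands were at -0.27, -0.19, -0.30 and -0.50 and the carcinomas ran from 0.33 through 0.91 to 2.17, with carcinoma 8 highest. Every carcinoma lay above every normal gland there in the ratio. In Cy5, relative to the mean of the normal glands, carcinoma 1 was at 0.13 and normal gland 2 at 0.20. Regions at chr5:62900827-62901279 and chr5:5291578-5292078 rose by 1.48 and 1.47, with 14 and 15 of 16 carcinomas above all normal glands; the first lost its call within scan day 2 (adjusted p = 0.128 in limma). At chr5:37284778-37286175, with 15 probes, the difference was 1.30 with an adjusted p of 0.0188 in limma. It was also the widest of the 8 between carcinomas, from -0.47 in carcinoma 3 to 2.81 in carcinoma 8, and its call was lost on the linear position (adjusted p = 0.125 in limma), with loess (0.11), with normexp (0.124), in the Cy5 signal alone (0.137), within scan days 2 and 3 (0.0683 and 0.238) and without normal gland 3 or 4 (0.0503 and 0.0633).

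The 8 largest falls were deeper, from -2.79 to -2.31, and in each every carcinoma lay below every normal gland in the ratio. The 8 were picked for the size of the fall. Such separation held at 12.8% of chromosome 5 regions and 15.6% of all regions. In Cy5 the groups overlapped at chr5:147992649-147993279. Relative to the mean of the normal glands, carcinoma 1 was at -0.94 there and normal gland 2 at -1.05. With loess 7 of the 8 were no longer called; the exception was chr5:137609611-137610366, at -1.58. In the Cy5 signal alone the 8 differed by -3.13 to -2.31. The largest was in the distal interval, chr5:151563323-151563981, with 4 probes. The normal glands were at 4.63, 2.77, 2.85 and 3.93 and the carcinomas ran from 0.27 through 0.62 to 1.5. The difference was -2.79 ± 0.26 (SE), with an adjusted p of 2.71e-07 in limma, and on the linear position it was 0.46 ± 0.19 in normal glands against 0.19 ± 0.12 in carcinomas (adjusted p = 0.0139 in limma). With loess its difference was -0.14 (adjusted p = 0.462 in limma). The second, chr5:137609611-137610366, fell from 2.90 to 0.31, and the fifth, chr5:127700266-127700834, from 2.58 to 0.17. Carcinoma 8 was the highest carcinoma at the latter, at 1.68.

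Not all of these falls were changes in linear position. The region chr5:153263402-153263792, the other distal one, fell from 3.67 ± 0.68 to 1.35 ± 0.62 in log2 ratio (adjusted p = 1.95e-05 in limma), while its linear position was 0.49 against 0.35 (adjusted p = 0.343 in limma). At chr5:22709432-22709726 and chr5:147992649-147993279 the adjusted p on the linear position was 0.149 and 0.199 in limma. At chr5:146755911-146756209 and chr5:60117366-60117742 all 16 carcinomas stayed above a linear position of 0.5, with means of 1.15 and 1.36 against 1.53 and 1.68 in normal glands. With loess the regions starting at 22709432, 146755911 and 60117366 changed sign, to 0.14, 0.21 and 0.02. At the largest fall the mean of the 4 low-input carcinomas was 0.77 and that of the other 12 was 0.75. At chr5:153263402-153263792 the 4 lay in the upper range, from 1.54 to 2.43 with a mean of 1.95, where the other 12 averaged 1.15 and ran from 0.53 to 2.25.

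**Figure D4:**
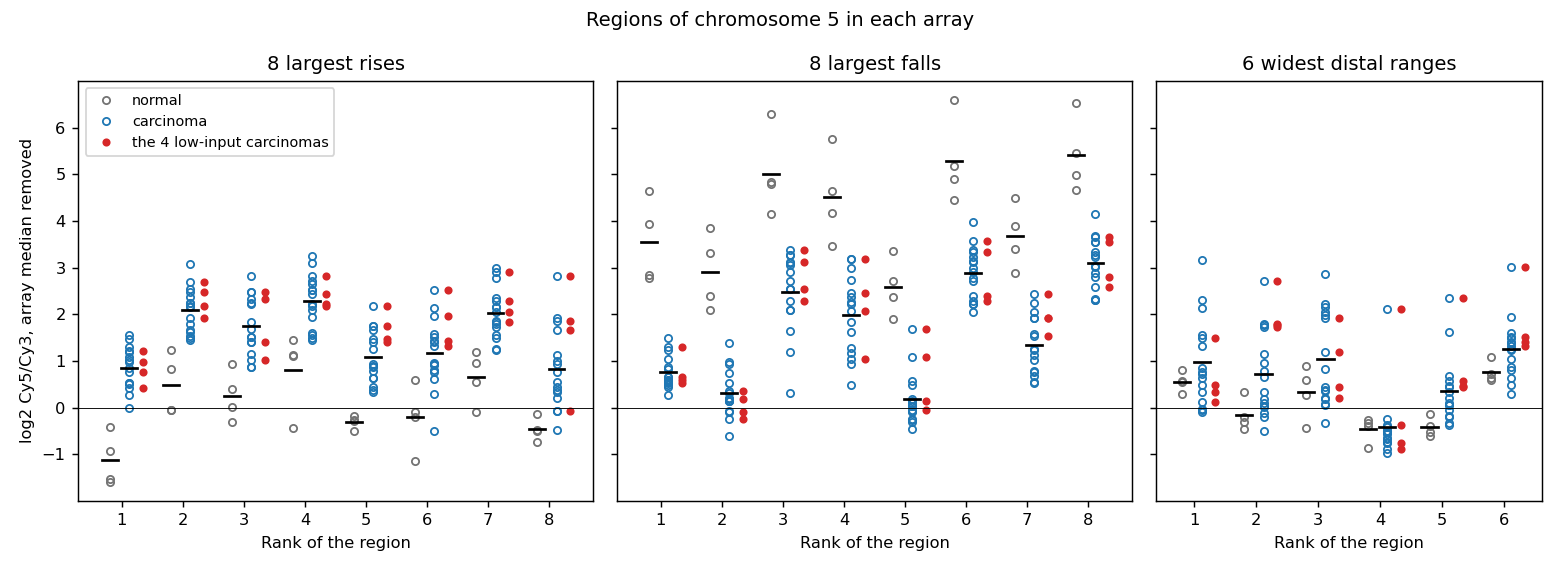
Log2 Cy5/Cy3 of each array (array median removed) at the 8 regions with the largest rise, the 8 with the largest fall, and the 6 distal regions with the widest range over carcinomas, in order of rank. Grey circles are the 4 normal glands, blue circles all 16 carcinomas and red points the 4 low-input carcinomas among them, with black bars at group means. At each of the falls, picked for their size, all carcinomas lie below all normal glands. They do so at 15.6% of all regions. Carcinoma 8, a red point, is the highest carcinoma at falls 3, 5 and 7, and at fall 7 all red points lie in the upper part of the range.

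The 6 distal regions of 5 or more probes that varied most among carcinomas did not all order the carcinomas by input over the interval. Over them the range between carcinomas was 2.73 to 3.26, and 0 of the 6 passed the test of carcinoma against normal in limma (adjusted p from 0.0874 to 0.934). At chr5:154925105-154925693 carcinomas 6, 5 and 1, none of them low in input over the interval, were highest at 3.17, 2.29 and 2.13. The low-input carcinomas 11, 16, 15 and 8 were at 0.11, 0.33, 0.48 and 1.48. At this region itself the Cy3 shift was -0.56, -0.66 and -1.27 in carcinomas 6, 5 and 1. It was -0.81, -0.33, -1.38 and -0.39 in carcinomas 11, 16, 15 and 8. At chr5:163696887-163697495 the highest were carcinomas 1, 12 and 6, at 2.87, 2.23 and 2.15, and the low-input carcinomas 11, 16, 8 and 15 were at 0.21, 0.45, 1.18 and 1.91.

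At other regions low-input carcinomas were at the top. At chr5:153950362-153951290, with 11 probes, carcinomas 8, 16, 15 and 11 were the 4 highest, at 2.71, 1.78, 1.78 and 1.73, and carcinoma 6 followed at 1.14. It is 1 of the 3 regions at which the ratio separated the 4 from the other 12. At chr5:169710444-169711180 carcinoma 15 stood alone at 2.11 while the other 15 carcinomas lay between -0.97 and -0.24. Carcinoma 8 was highest at chr5:157172573-157173867, at 2.35 with carcinoma 14 next at 1.61, and at chr5:151013644-151013933, at 3.02 with carcinoma 13 next at 1.94. At the second of these its input was not low, with a Cy3 shift of 0.33 and a Cy5 shift of 2.57. That region lies before the start of its distal low run in the processed signal and after the start in the adjusted signal. Input at these single regions ranged more widely than over the interval: the lowest Cy3 shift was -1.38, in carcinoma 15 at chr5:154925105-154925693, and -0.76, in the same carcinoma at chr5:163696887-163697495.

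Finally, islands gained in single carcinomas were counted: low-class regions whose linear position passed 0.5. In the distal interval the share ran from 0 of 252 regions in carcinoma 2 to 7.94% in carcinoma 15, followed by 5.95% in carcinoma 8, 4.37% in carcinoma 6 and 3.97% in carcinoma 11. Carcinoma 16, the other low-input carcinoma, was at 1.59%. In the rest of the chromosome the share ran from 0 to 12.6% and on the other autosomes from 0.129% to 11.0%, with carcinoma 15 highest in both. The distal share was below that of the rest of the chromosome in 15 of 16 carcinomas; in carcinoma 2 both were 0. In the normal glands these counts are 0 by the definition of the class.

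**Figure D5:**
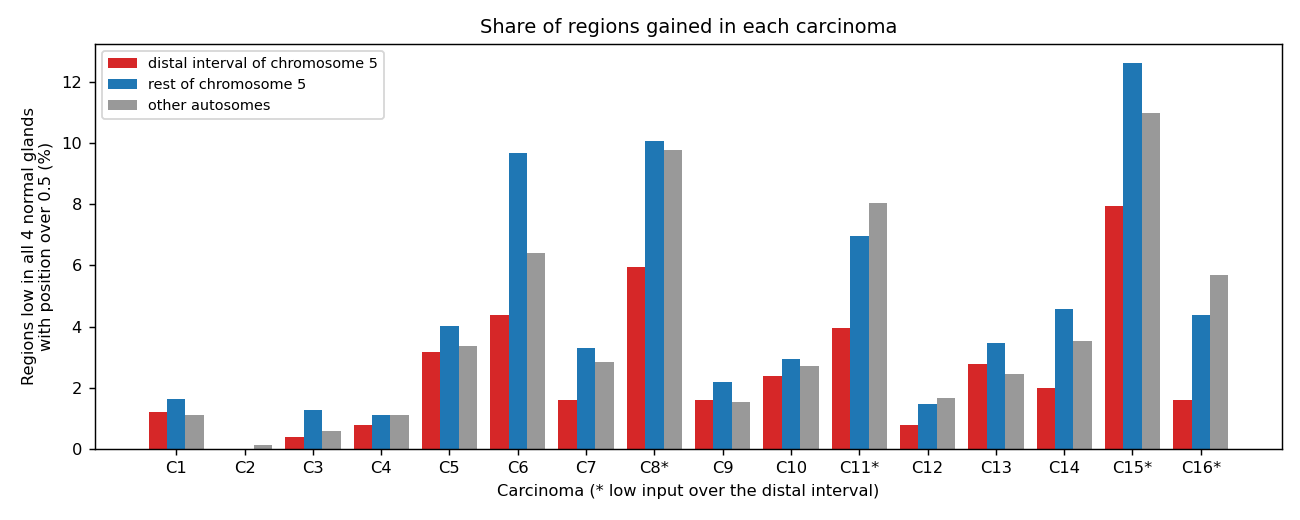
Share of regions low in all 4 normal glands that passed a linear position of 0.5, per carcinoma, in the distal interval of chromosome 5, the rest of the chromosome and the other autosomes. Asterisks mark the 4 low-input carcinomas. Carcinoma 15 has the highest share in each part, and the distal share is below that of the rest of the chromosome in every carcinoma except carcinoma 2, where both are 0.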

How the data were processed

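Each of the 20 two-colour arrays was quantified by the authors in Feature Extraction 10.7.3.1 (Agilent), with probes placed on rn4, per the file headers. The processed intensities deposited in the scanner files had the background subtracted and a linear factor applied per dye. The log10 ratios deposited beside them are red over green. In the authors' value table, log2 ratios of 91897 probes all lay within 0.01 of those log10 ratios rescaled, and column medians of -0.48 to -0.08 show that it was not centred.

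Here, 1565 control spots and 187 outlier-flagged values were left out, after which the median of every array was set to 0. Ratios used 91599 probes, those whose input passed background in 10 arrays or more; 13556 of 16436 runs of probes became regions. Carcinomas and normal glands were tested in R 4.3.3 by limma 3.58.1 (Benjamini-Hochberg over all regions) and array means are given as values with no test, since input is the denominator of the ratio; the exact permutation tests planned for them are not printed. Input shift was log2 Cy3 minus the mean of the normal glands. The run caller and limma were tested on simulated data. These held no shift with probe brightness, so they could not show whether such a shift yields false low runs. Named regions were the 8 largest rises and 8 largest falls past the threshold on chromosome 5 and the 6 distal regions of at least 5 probes with the widest range over carcinomas. Members, interval and these rules were chosen with earlier results of these data known. The number of arrays limits the precision. None of the 10 slides held both groups; scan days 2 and 3 did. Alternatives covered scaling, background correction, filters, thresholds, batches and left-out arrays. Other software was matplotlib 3.10.9, data.table version 1.17.8, scipy 1.17.1, Python 3.11.15, pandas 2.3.3 and numpy 2.4.6.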

Additional observations from a re-analysis of the deposited data

Results flagged for a closer look

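For 33 quantities the normal glands were checked for 1 that stood apart; about 1 in 20 such checks is expected to mark a gland by chance. The mean log2 ratio of chromosome 5 regions was 0.56 in normal gland 1, where the other glands lay between 0.37 and 0.39. The share of chromosome 5 probes with input well above background was 98.6% in normal gland 3 and 98.81% to 98.84% in the others.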

How the results depend on the processing

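The distal mean was below -0.25 in 4 carcinomas with medians over probes, the array median outside the chromosome, probes well above background on all arrays, the brightness adjustment and each normal gland left out of the reference, and in 3 with normexp. The number of carcinomas with a low run, 9 as reported, was 5 at a threshold of -0.35, with at least 10 windows a run and with the brightness adjustment, and 4 with medians over probes, normexp, or probes well above background on all arrays. The summed length, 689 megabases, was 1151 at a threshold of -0.15 and 399 with normexp.

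Chromosome 5 regions higher in carcinomas, 132 as reported, numbered 84 with quantile normalization, 52 with normexp and 35 in Cy5 alone. They numbered 56 at an adjusted p under 0.01, and 45 and 30 within scan days 2 and 3. The backgrounds over all regions were 9.05%, 3.47%, 4.77%, 4.68%, 4.49% and 2.15% in that order. Lower regions, 184 as reported, numbered 26 with loess, 108 with quantile normalization and 35 on the linear position. Their backgrounds were 7.15%, 14.7% and 4.34%. With at least 5 probes a region, 84 of 610 were higher and 113 lower, against backgrounds of 11.4% and 23.8%. Leaving out 1 array gave 72 to 156 higher and 162 to 199 lower, against backgrounds of 6.57% to 16.1% and 21% to 24.6%. The mean ratio of the chromosome reversed with loess (0.0932), quantile normalization (0.0196) and linear position (0.0648), and was -0.12 after removing the median of regions outside the chromosome, and -0.0554 within scan day 2; leaving out 1 array gave -0.138 to -0.0774. The distal mean, -0.30, was -0.0346 with quantile normalization and reversed with loess (0.088) and linear position (0.0502). Regions starting at 22709432, 146755911 and 60117366 reversed with loess (0.14, 0.21 and 0.0249). The cause was not tested.

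The deviations of same-numbered samples had correlations of 0.34, -0.29, 0.10 and -0.04. So few values cannot tell whether the numbers pair the samples, and no label says that they do. With the replicate block 68 regions were higher and 163 lower, against backgrounds of 7.89% and 19.7%. Under this block the means differed by -0.16 and -0.30. Of the named regions, those starting at 5291578, 120328661 and 37284778 lost their call under it. The slide as a random block was run for single regions only. Array number, dim input and window noise limit shifts under about 0.1.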
